A study of Mus musculus with 4 samples.

Results

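The 10 genes described here encode structural proteins of the meiotic chromosome: 7 parts of the synaptonemal complex and its axes (Sycp1, Syce1, Syce2, Syce3, Sycp2, Sycp3 and Hormad1) and 3 cohesin subunits used in meiosis (Rec8, Smc1b and Stag3). They were chosen by name, with earlier results of these data known. Every probe set that the array's annotation assigns to one of these genes alone was taken. This gave 10 probe sets for 10 genes, of 45037 non-control probe sets and 18193 genes in all. None of the 10 probe sets is shared with another gene in that annotation. RNA came from mouse J1 embryonic stem cells of the Tet-on line Chd4i-1, in which doxycycline switches on RNAi against the chromatin remodeller Chd4, the motor subunit of NuRD, a complex that also carries histone deacetylases. Cells of the Chd4 RNAi group (n = 2 arrays) were kept for 3 days in 5 ng/ml doxycycline. Controls (n = 2 arrays) were the same line without it, so the cells on all 4 arrays carry the construct. Cells grew on gelatin in 15% serum with 1000 U/ml leukaemia inhibitory factor, and the replicates are described as biological. All arrays come from a single RNAi line, and no doxycycline-treated line without the construct was analysed here.

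During meiotic prophase, cohesin with the kleisin Rec8, the SMC subunit Smc1b and the STAG subunit Stag3 organises each chromosome into loops along an axis, on which Sycp2, Sycp3 and Hormad1 assemble. Sycp1 filaments then bridge the paired axes like the teeth of a zip, and the central element proteins Syce1, Syce2 and Syce3 hold the filaments together at the midline. Their genes are chiefly known from germ cells. Several are held down in embryonic stem cells by E2f6 and by the variant Polycomb complex that contains Pcgf6, Mga, Max and L3mbtl2, and Stag3 and Smc1b are classical E2f6 targets. DNA methylation is a further known brake on germline genes.

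The stretches before the starts of 6 of these genes are shown because they carry, or lack, the letters through which those repressors are known to act. Each runs from 250 bases before to 30 bases after the annotated start, in RefSeq's GRCm38.p6, and capitals mark TCCCGC (the core of an E2F-type site) and CACGTG (an E-box of the Max and Mga type), searched on both strands. Syce3, Syce1 and Rec8 are the members that passed the test below, Smc1b and Stag3 are the E2f6 targets, and Sycp3 has a pair of E-boxes. The windows are chr15:89410234-89410513 (minus strand) for Syce3, the more downstream of its annotated starts, chr7:140787825-140788104 (minus) for Syce1, chr14:55617916-55618195 (plus) for Rec8, chr15:85131928-85132207 (minus) for Smc1b, chr5:138280259-138280538 (plus) for Stag3 and chr10:88459337-88459616 (plus) for Sycp3.
Syce3: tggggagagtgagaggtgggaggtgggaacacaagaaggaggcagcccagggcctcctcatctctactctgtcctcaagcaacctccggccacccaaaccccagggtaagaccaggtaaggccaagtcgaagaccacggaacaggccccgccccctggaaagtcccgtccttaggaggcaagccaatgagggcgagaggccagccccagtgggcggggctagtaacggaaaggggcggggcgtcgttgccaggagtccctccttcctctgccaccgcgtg
Syce1: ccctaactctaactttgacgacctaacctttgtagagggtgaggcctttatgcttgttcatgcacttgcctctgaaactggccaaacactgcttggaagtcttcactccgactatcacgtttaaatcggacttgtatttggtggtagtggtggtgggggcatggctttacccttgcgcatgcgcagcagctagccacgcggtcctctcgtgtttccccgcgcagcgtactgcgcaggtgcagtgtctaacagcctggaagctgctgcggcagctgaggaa
Rec8: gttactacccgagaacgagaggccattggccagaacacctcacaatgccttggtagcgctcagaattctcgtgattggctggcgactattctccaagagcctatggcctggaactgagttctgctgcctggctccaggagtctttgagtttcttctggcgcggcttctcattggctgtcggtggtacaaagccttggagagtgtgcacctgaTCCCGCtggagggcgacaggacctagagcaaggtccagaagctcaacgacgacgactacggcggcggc
Smc1b: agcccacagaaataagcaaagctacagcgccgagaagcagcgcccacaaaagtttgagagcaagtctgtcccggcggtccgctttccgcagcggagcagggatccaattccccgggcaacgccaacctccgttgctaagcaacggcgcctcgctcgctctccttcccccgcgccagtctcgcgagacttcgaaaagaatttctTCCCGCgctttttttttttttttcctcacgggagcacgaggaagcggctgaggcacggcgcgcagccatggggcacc
Stag3: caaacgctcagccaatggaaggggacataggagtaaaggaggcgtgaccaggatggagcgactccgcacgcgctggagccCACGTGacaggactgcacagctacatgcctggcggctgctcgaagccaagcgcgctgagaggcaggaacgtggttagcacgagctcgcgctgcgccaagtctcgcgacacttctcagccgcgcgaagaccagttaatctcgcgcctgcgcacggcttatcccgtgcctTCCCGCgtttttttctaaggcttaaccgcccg
Sycp3: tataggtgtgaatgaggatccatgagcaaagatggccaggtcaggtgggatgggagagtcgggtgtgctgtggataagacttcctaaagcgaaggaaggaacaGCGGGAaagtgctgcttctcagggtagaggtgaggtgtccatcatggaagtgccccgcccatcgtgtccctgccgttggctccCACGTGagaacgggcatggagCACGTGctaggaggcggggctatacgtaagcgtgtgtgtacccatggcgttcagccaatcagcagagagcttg

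All 10 members matched the promoter table, with 13 windows. TCCCGC was present in windows of 7 of the 10 genes (9 of 13 windows), and 18.8% of all 32851 promoter windows of this length hold it. It begins 47 bases before the start of Smc1b and 2 bases before that of Stag3, where it runs across the start, and 38 bases before that of Rec8. CACGTG was present in windows of 5 genes (6 of 13 windows), against 6.79% of all windows. It occurs at 2 places each in the windows of Sycp3 and Hormad1, and 0.569% of all windows hold 2 or more. Neither set of letters occurs in the windows of Syce1, Syce3 or Sycp2. Of the members that passed the test below, Syce1 and Syce3 have neither and Rec8 has TCCCGC, while Sycp2 did not pass. Whether the letters relate to the differences between groups was not tested. Between 5 and 30 CpG dinucleotides lay in the members' windows, with a median of 6 over all windows. Only the window at the more upstream start of Syce3, with 5, lay below that median, and every other member window held 9 or more. Both sets of letters contain a CpG, and the shares over all windows are not matched for CpG content. A match of letters is a description of the window and not a measured binding site.

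As a check of the knockdown, Chd4 was at 48.5%, 56.1% and 65.0% of control at its 3 probe sets (limma, Benjamini-Hochberg adjusted p = 0.000244, 0.00232 and 0.00638). The values are MAS5 signals on a linear scale, a summary of the probes of a probe set, and the median signal over non-control probe sets was 73.4 to 79.4 on the 4 arrays. Of the 27022 probe sets tested, 14.2% passed at an adjusted p under 0.05, 7.46% higher and 6.77% lower after Chd4 RNAi. Pluripotency markers were present, with 10 of 10 above the array median on every array and summed signals of 118804 to 121822 in the controls and 118474 to 121078 after RNAi. Of these 10, Esrrb and Klf4 fell 1.22-fold and 1.19-fold (limma adjusted p = 0.00722 and 0.0106), and Utf1 and Dppa5a rose 1.24-fold and 1.14-fold (adjusted p = 0.0142 and 0.0161). Markers of spermatids were above the median on all 4 arrays for 0 of 12 genes and below it on all 4 for 10 of 12, and the summed signal of the list was 311 to 326 in the controls and 552 to 580 after RNAi. Most of that rise came from Ldhc, a lactate dehydrogenase gene of male germ cells, at 51.5 and 97.5 in the controls and 270 and 236 after RNAi (at least 2.93-fold, limma adjusted p = 0.00262), while Prm1, Tnp1, Acr and Pgk2 stayed below the median on every array. For oocyte markers 1 of 10, Ooep, was above the median on every array, at 3291 and 3379 in the controls and 5181 and 5393 after RNAi. It passed as higher (1.59-fold, limma adjusted p = 5.44e-05), and the list summed to 3675 to 3776 and 5577 to 5832. Fibroblast markers summed to 544 to 645 and 901 to 978. That rise came from Thy1, at 176 and 200 in the controls and 601 and 547 after RNAi. It was the only member that passed (3.06-fold higher, limma adjusted p = 7e-05). The median log2 difference of the 10 fibroblast genes was -0.15, and Col1a1, Col3a1 and Dcn were below the median signal throughout. Markers of extraembryonic endoderm summed to 1004 to 1011 and 841 to 850. Lama1 was the only gene of that list that passed, 1.46-fold lower, from 381 and 376 to 280 and 241 (limma adjusted p = 0.0378). The part of these shifts in the results on the meiotic genes was not tested.

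Among the 10 meiotic genes, 3 rose after Chd4 RNAi, Syce3, Syce1 and Rec8, 0 fell in limma and 7 did not pass. The background share of probe sets that rose is the 7.46% given above, and 10.3% of genes rose when each is read at its brightest probe set. At an unadjusted p under 0.05, 5 members were higher and 0 lower, where 14.5% of all tested probe sets were higher and 13.8% lower. For genes read at the brightest probe set, these shares were 18.7% and 14.9%. The median log2 difference of the 10 was 0.55, against -0.012 over all probe sets tested. Signals of the groups did not overlap for 8 genes, 6 higher and 2 lower after RNAi, where 27.5% of all tested probe sets were higher without overlap and 28.4% lower. The members were chosen with earlier results of these data known, so an excess over these shares is a description and not a test. In RNA from whole cultures, more cells with a transcript and more transcript per cell cannot be told apart.

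**Figure D1:**
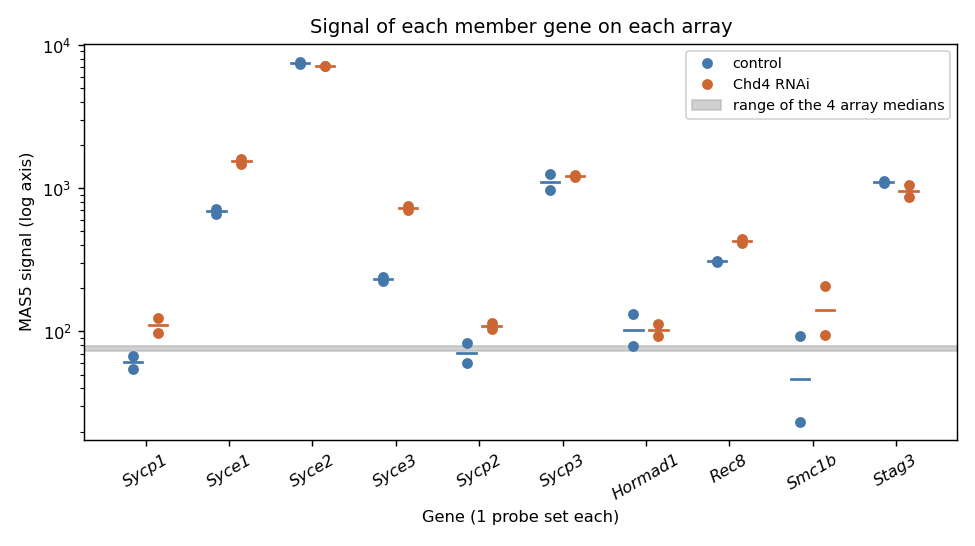
MAS5 signal (log axis) of the 10 meiotic chromosome genes on each array, with 2 control points (blue) and 2 Chd4 RNAi points (orange) per gene, bars at the group mean of log2 signals, and a grey band for the range of the array medians (73.4 to 79.4). Syce1, Syce3 and Rec8 show groups clear of each other and of the band. Smc1b, Sycp1, Sycp2 and Hormad1 have control points in or under the band.

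Measured against the median of its own array, the signal was above it on all 4 arrays for 7 genes: Syce1, Syce2, Syce3, Sycp3, Hormad1, Rec8 and Stag3. Sycp1 was above the median only on the 2 RNAi arrays. Sycp2 and Smc1b were above it on both RNAi arrays and on 1 control array each. Detection calls were not used here, so a signal under the median is dim and need not be absence of the transcript.

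Of the 3 central element genes Syce3 and Syce1 rose and Syce2 did not pass. Syce3 (probe set 1435412_at) encodes a small central element protein that binds Sycp1. In the controls it read 226 and 239, and after RNAi 706 and 748. Both RNAi arrays were far above both controls, and replicate 2 over replicate 1 was 1.06 in each group. This is a rise of 3.13-fold (log2 1.65 ± 0.13 SE, limma adjusted p = 1.94e-05), the 186th highest of 27022 differences.

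Syce1 (1428685_at), whose protein joins Syce3 at the central element, read 659 and 716 in the controls and 1471 and 1606 after RNAi. The groups did not overlap, and the fit gave a rise of 2.24-fold (log2 1.16 ± 0.095 SE, limma adjusted p = 2.57e-05), the 498th highest difference. Syce2 (1429270_a_at), which forms the fibrous part of the central element, was bright and nearly flat, at 7390 and 7596 in the controls and 7132 and 7124 after RNAi. Both RNAi values were below both controls, but the ratio of 0.951 (95% interval 0.879 to 1.03) did not pass (limma adjusted p = 0.414). The interval of Syce2 holds no rise above 1.03-fold, while the lower ends of the intervals of Syce1 and Syce3 are 1.94-fold and 2.56-fold. Differences between members were not tested against each other.

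The transverse filament gene Sycp1 (1427291_at) was dim, at 67.7 and 54.8 in the controls and at 124 and 97.4 after RNAi. Both RNAi arrays were higher than both controls. The ratio of the group means was at least 1.45-fold when signals under the overall median of 76.0 are set to it, but the difference did not pass (log2 0.85 ± 0.33 SE, limma adjusted p = 0.113).

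The axis genes Sycp3, Sycp2 and Hormad1 did not pass. Sycp3 (1449534_at), a main component of the axial element and a common cytological marker of meiotic chromosomes, was well above the median at 963 and 1246 in the controls and 1198 and 1233 after RNAi. The RNAi values lay between the control values, with a ratio of 1.11 (95% interval 0.930 to 1.32, limma adjusted p = 0.446). Sycp2 (1444122_at), its partner in the axial element, had 82.8 and 60.2 in the controls and 115 and 104 after RNAi, with a log2 difference of 0.63 ± 0.32 SE (limma adjusted p = 0.226). Both RNAi signals of Sycp2 exceeded both controls, and the ratio of the group means was at least 1.37-fold with the floor at the median. Hormad1 (1450292_a_at), a HORMA-domain axis protein that monitors pairing, had 78.9 and 132 in the controls and 92.8 and 113 after RNAi. Its groups overlapped, with a ratio of 1.00 and a 95% interval of 0.614 to 1.63, so a change within that range was not detectable with these arrays.

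**Figure D2:**
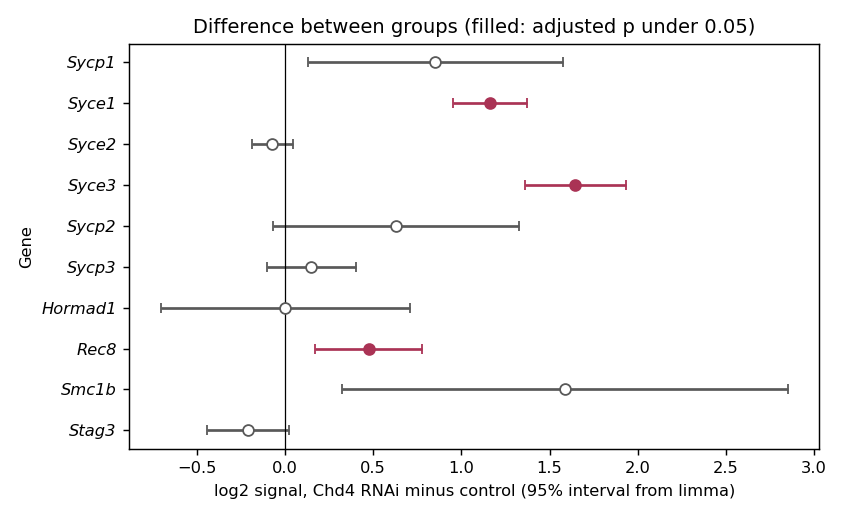
Difference in log2 signal, Chd4 RNAi minus control, for each of the 10 genes with its 95% interval from limma (2 arrays per group); filled points passed at an adjusted p under 0.05. Syce3 (1.65) and Syce1 (1.16) have narrow intervals clear of 0, Rec8 (0.47) lies closer to it, and Smc1b (1.59) has the widest interval.

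Of the meiotic cohesin genes Rec8 rose, while Smc1b and Stag3 did not pass. Rec8 (1419147_at), the kleisin that is cleaved at the meiotic divisions, had 309 and 306 in the controls and 443 and 412 after RNAi. The groups did not overlap and the gene rose 1.39-fold (log2 0.47 ± 0.14 SE, limma adjusted p = 0.0424). That call lies close to the threshold and ended when any 1 of the 4 arrays was left out (adjusted p = 0.0656 to 0.146).

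Smc1b (1449253_at), the meiosis-specific SMC subunit, had a large difference with a wide error. It read 23.5 and 92.4 in the controls, and 207 and 94.5 after RNAi. Replicate 2 of both groups gave nearly the same signal, and the control replicates differed 3.93-fold. The log2 difference of 1.59 ± 0.58 SE did not pass (limma adjusted p = 0.0927), and the bound with the floor at the median is 1.67-fold. Without control replicate 2 (log2 2.58, adjusted p = 0.00371) or without Chd4 RNAi replicate 2 (2.15, adjusted p = 0.0257) it passed, whereas it was 0.60 without control replicate 1 (adjusted p = 0.439) and 1.02 without Chd4 RNAi replicate 1 (adjusted p = 0.347).

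Stag3 (1460229_at), the meiosis-specific STAG subunit, was bright at 1126 and 1080 in the controls and 866 and 1049 after RNAi. Both RNAi values were below both controls, and the ratio of 0.864 did not pass (95% interval 0.735 to 1.02, limma adjusted p = 0.226). Of the E2f6 targets Stag3 and Smc1b, whose windows share TCCCGC near the start, neither passed the test. Rec8, whose window also holds TCCCGC, did, and a link between these letters and the differences was not tested.

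The mitotic counterparts of these subunits, which serve every dividing cell, were read from the same fit. Smc1a had 4126 and 4313 in the controls and 4135 and 4419 after RNAi at its brightest probe set, with a ratio of 1.01 (95% interval 0.921 to 1.12, limma adjusted p = 0.883). Its other probe sets were lower and did not pass. The ratios were 0.863 at 1417831_at (95% interval 0.753 to 0.989, limma adjusted p = 0.146) and 0.916 at 1417832_at (adjusted p = 0.598). Stag1 had a ratio of 1.05 at its brightest probe set (95% interval 0.933 to 1.18, limma adjusted p = 0.610). Of the other 5 probe sets of Stag1, 4 were lower, with ratios down to 0.779 (adjusted p = 0.0625), and 1 was higher at 1.37 (adjusted p = 0.351). Stag2 fell 1.26-fold, from 2462 and 2716 to 1945 and 2156 (log2 -0.34 ± 0.081 SE, limma adjusted p = 0.0175), and its other probe set had a log2 difference of -0.37 (adjusted p = 0.0515). Stag2 no longer passed when control replicate 2 was omitted (-0.27, adjusted p = 0.122) or Chd4 RNAi replicate 1 was (-0.26, adjusted p = 0.0746). Rad21, the mitotic kleisin, had 8159 and 8270 in the controls and 7351 and 7348 after RNAi at its brightest probe set (ratio 0.895, limma adjusted p = 0.0590), and 1 of its other 2 probe sets, 1455938_x_at, passed as lower (log2 -0.36 ± 0.080 SE, adjusted p = 0.0113). Smc3, which both kinds of cohesin use, had a ratio of 1.08 at its brightest probe set (95% interval 0.984 to 1.19, limma adjusted p = 0.266) and of 0.792 at the other (adjusted p = 0.204). Whether the meiotic and mitotic genes differ in response was not tested.

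**Figure D3:**
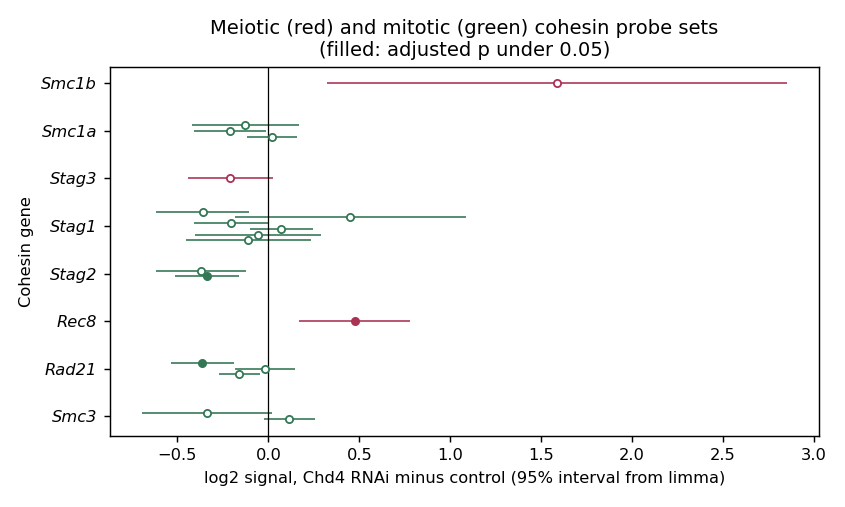
Difference in log2 signal, Chd4 RNAi minus control, with 95% intervals from limma, for every probe set of the meiotic cohesin genes (red, 1 each) and of their mitotic counterparts (green); filled points passed at an adjusted p under 0.05. Rec8 is the filled red point to the right of 0, and the filled green points, of Stag2 and Rad21, lie to the left.

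Other genes of the meiotic programme were taken from lists, each gene read at its brightest probe set, where 10.3% of the 12615 genes tested rose and 7.79% fell. The lists, too, were chosen with earlier results of these data known. Of 8 tested further genes of the synaptonemal complex and axis, 0 rose and 0 fell in limma, with 3 higher and 0 lower at an unadjusted p under 0.05 (18.7% and 14.9% over all genes tested), and their median log2 difference was 0.022 against 0.014 over all genes tested. Tex12, the partner of Syce2, was below the median on every array, and its log2 difference was -0.51 ± 0.45 SE (limma adjusted p = 0.516). For Hormad2, the relative of Hormad1, the fit gave 0.29 ± 0.31 SE on the log2 scale (adjusted p = 0.608). These 2 are named for their partners and were chosen after their values were seen.

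Among 13 tested recombination genes, 2 rose and 1 fell (10.3% and 7.79% over all genes tested), with a median log2 difference of 0.24. Rec114, a partner of the machinery that makes meiotic double-strand breaks, rose 3.67-fold, from 124 and 148 to 468 and 528 (limma adjusted p = 6.67e-05). Mnd1 rose 1.31-fold (adjusted p = 0.00638), whereas Psmc3ip, which encodes the Hop2 protein that works as a dimer with Mnd1, fell 1.30-fold (adjusted p = 0.0169). Psmc3ip no longer passed with control replicate 2 left out (log2 -0.33, adjusted p = 0.111) or with Chd4 RNAi replicate 1 left out (-0.35, adjusted p = 0.0524). Spo11, the gene of the break-making enzyme itself, was under the filter on low signals, and the recombinase gene Dmc1, also named after its values were seen, did not pass at 238 and 148 in the controls and 218 and 293 after RNAi (limma adjusted p = 0.289).

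Of 16 tested genes of meiotic entry and prophase, 4 rose and 2 fell (10.3% and 7.79% over all genes tested). Their median log2 difference was 0.41. Meioc, which stabilises meiotic prophase, rose 1.59-fold, from 647 and 631 to 1012 and 1027 (limma adjusted p = 0.00105). Boll, an RNA-binding protein gene of the Dazl family, rose 1.98-fold, from 131 and 114 to 272 and 217 (adjusted p = 0.0114), and the call ended without Chd4 RNAi replicate 1 (log2 0.83, adjusted p = 0.0642). Dazl itself and Ythdc2, the helicase partner of Meioc, were the other 2 that rose and are named after their values were seen (1.75-fold and 1.33-fold, limma adjusted p = 0.0398 and 0.0449). Neither call held with control replicate 1 omitted (log2 0.78, adjusted p = 0.0847, and 0.27, adjusted p = 0.272). Dazl also lost its call when control replicate 2 was omitted (log2 0.83, adjusted p = 0.0673) or Chd4 RNAi replicate 2 was (0.42, adjusted p = 0.272), and Ythdc2 when Chd4 RNAi replicate 1 was (0.35, adjusted p = 0.146). Of the 2 genes that fell, Ddx4, a germ-cell RNA helicase, fell 4.40-fold (limma adjusted p = 1.07e-06) and Mov10l1, a piRNA helicase, at least 1.79-fold from 138 and 140 to 79.8 and 46.0 (adjusted p = 0.0360). Mov10l1 did not pass with control replicate 1 omitted (log2 -1.21, adjusted p = 0.128), nor with control replicate 2 (-1.19, adjusted p = 0.135) or Chd4 RNAi replicate 2 omitted (-0.80, adjusted p = 0.121).

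**Figure D4:**
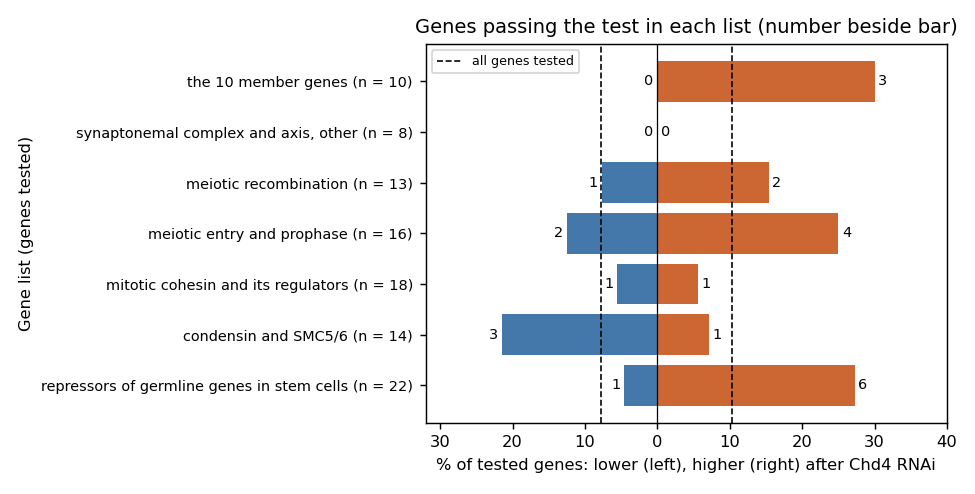
Share of tested genes that were higher (right) or lower (left) after Chd4 RNAi at a limma adjusted p under 0.05, for the 10 members and 6 further lists, with the number of genes beside each bar and dashed lines at the shares over all genes tested (10.3% higher, 7.79% lower). The members show 3 higher and 0 lower, and the other synaptonemal complex and axis genes 0 of either.

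Genes of chromosome structure outside meiosis gave 2 and 4 calls per list, where 10.3% of all genes tested rose and 7.79% fell. Among 18 tested genes of mitotic cohesin and its regulators 1 rose, the securin gene Pttg1 (1.21-fold, limma adjusted p = 0.00368), and 1 fell, Stag2, with a median log2 difference of -0.023. Of 14 tested condensin and SMC5/6 genes 1 rose and 3 fell, with a median of -0.099. Smc4, a condensin ATPase, rose 1.25-fold (adjusted p = 0.00690). The SMC5/6 subunit genes Nsmce1 and Nsmce3 fell 1.56-fold and 1.32-fold and the condensin gene Ncaph 1.21-fold (limma adjusted p = 0.00115, 0.0205 and 0.0206). Nsmce3 and Ncaph did not pass with control replicate 1 omitted (log2 -0.33, adjusted p = 0.141, and -0.21, adjusted p = 0.154) or Chd4 RNAi replicate 1 (-0.35, adjusted p = 0.0708, and -0.23, adjusted p = 0.0754), nor did Smc4 with control replicate 1 omitted (0.23, adjusted p = 0.0506).

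Among 22 tested genes of a list of germline repressors and DNA methylation regulators, 6 rose and 1 fell (10.3% and 7.79% over all genes tested). Their median log2 difference was 0.061. Dnmt3l and Dnmt3b, of de novo DNA methylation, rose 5.74-fold and 1.86-fold (limma adjusted p = 2.24e-08 and 1.75e-05). Pcgf6, the subunit that defines the variant Polycomb complex, rose 1.27-fold, from 2770 and 2583 to 3531 and 3291 (adjusted p = 0.00714). Trim28 and L3mbtl2 also rose and are named after their values were seen (log2 0.23 and 0.31, limma adjusted p = 0.0110 and 0.0320). Without a filter L3mbtl2 did not pass (adjusted p = 0.0501). E2f6 rose 1.62-fold at its brightest probe set, from 884 and 721 to 1213 and 1374 (log2 0.69 ± 0.11 SE, limma adjusted p = 0.00242). Its other probe set, 1437914_at, was under the filter and went the other way, from 87.9 and 96.5 to 31.3 and 8.86, and the mean of both probe sets gave a log2 difference of -0.89 (adjusted p = 0.0779). The direction of E2f6 is therefore not settled by these arrays. Tet1, a 5-methylcytosine dioxygenase, was the 1 gene that fell and is named after its value was seen (1.33-fold, limma adjusted p = 0.0244). As such an enzyme it is listed for its link to DNA methylation, and its fall is not read as the loss of a repressor. Tet1 lost its call when control replicate 2 was omitted (log2 -0.22, adjusted p = 0.136) or Chd4 RNAi replicate 2 was (-0.31, adjusted p = 0.0682).

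The choice of probe set also bears on the genes of these lists. With the mean of all probe sets of a gene in place of the brightest, the fall of Nsmce1 shrank to a log2 difference of -0.26 (limma adjusted p = 0.174), the difference of Pttg1 to 0.13 (adjusted p = 0.183) and that of Ncaph to -0.11 (adjusted p = 0.232). In the same fit Boll (0.73, adjusted p = 0.116), Pcgf6 (0.25, adjusted p = 0.0988), Dazl (0.73, adjusted p = 0.0816), Tet1 (-0.53, adjusted p = 0.0786) and Smc4 (0.21, adjusted p = 0.0603) also did not pass. Ythdc2 (0.41, adjusted p = 0.0637) and Mov10l1 (-1.20, adjusted p = 0.0581) did not pass either. Their differences were the same as at the brightest probe set, so the choice of probe set did not enter for them.

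Genes next to the members on the chromosome were read as a further description. Of the 20 protein-coding genes that directly flank them in GRCm38.p6, 16 were on the array and 12 were tested, of which 0 passed in limma and 2 had an unadjusted p under 0.05. Over all genes tested these shares were 18.1% and 33.6%, and the lowest adjusted p among the neighbours was 0.0528. That lowest value belongs to Ipo4, beside Rec8, with 1508 and 1475 in the controls and 1717 and 1843 after RNAi. Beside Syce1, Zfp941 had a log2 difference of -0.13 (limma adjusted p = 0.639), and Cyp2e1 was under the filter at 18.7 and 13.1 in the controls and 43.7 and 26.2 after RNAi. Neither neighbour of Syce3 had a probe set of its own here.

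Every call above rests on a variance model in which the spread depends on signal. In limma without that trend 0 of 27022 probe sets passed, with 5828 at an unadjusted p under 0.05, and Syce3 and Syce1 had adjusted p values of 0.0618 and 0.0686 at the same differences.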

How the data were processed

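The 4 samples were hybridised to Affymetrix arrays with a single label, biotin, from 6 ug of total RNA each. The deposited values are intensity on a linear scale, 1 signal per probe set, computed by MAS5, per the submitters' processing notes; no source used here gives its version or scaling target. Probe sets were named from the platform annotation (34945 of 45037 with 1 symbol). Log2 signals without a pseudocount were compared (Chd4 RNAi minus control) in limma 3.58.1 (R 4.3.3) by lmFit and eBayes, with a trend of the variance on intensity and with 2 residual and 9.24 prior degrees of freedom, over the top 60% of non-control probe sets (mean signal 42.4 or more). The Benjamini-Hochberg adjustment took in all 27022, and tests were two-sided. The fit was tested on simulated data. The number of arrays limits the precision. For folds written as "at least", signals under the overall median (76.0) were set to it; this is not a confidence limit. Genes named were the 10 members, Chd4, up to 4 that passed per list, and the cohesin counterparts; others are context for these. Of 164 list entries 149 were on the array. Members and lists were chosen with earlier results of these data known. Alternatives changed the filter, pseudocount, normalization, floor, variance model, choice of probe set, replicate block and, in turn, each array.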

Additional observations from a re-analysis of the deposited data

How the results depend on the processing

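Over 13 alternatives the log2 difference of Syce3 stayed between 1.58 and 1.69 and that of Syce1 between 1.10 and 1.23, and both passed in 12. The exception was the variance model without an intensity trend, in which Syce3 (1.65, adjusted p = 0.0618), Syce1 (1.16, adjusted p = 0.0686) and Rec8 (0.47, adjusted p = 0.130) did not pass. That model called 0 probe sets, 0 members and 0 genes of the wider lists in limma, with 5828, 5 and 25 at an unadjusted p under 0.05. Without the trend the fit had 1.74 prior degrees of freedom, against 9.24 with it, and its lowest limma adjusted p was 0.0594. The part of this in the lost calls was not tested. Rec8 passed in 5 of 13, and not without a filter (0.47, adjusted p = 0.0631), with signals floored at the median (0.47, adjusted p = 0.0854) or with a replicate block (0.47, adjusted p = 0.0536). With 1 array left out, its difference was 0.42 to 0.53, that of Smc1b 0.60 to 2.58, and the probe sets changed 2430 to 3535 (3847 with all arrays); 2430 was without control replicate 2. With 1 mean per gene 1380 genes changed and 12 of the wider lists' genes, against 22 at the brightest probe set, and E2f6 was at -0.89. Without a filter Tet1 (-0.41, adjusted p = 0.0662), Ythdc2 (0.41, adjusted p = 0.0754), Dazl (0.81, adjusted p = 0.0830) and Mov10l1 (-1.20, adjusted p = 0.0897) did not pass. With the floor at the median Stag2 (adjusted p = 0.0547), Ncaph (0.0532), Tet1 (0.121), Dazl (0.130), Ythdc2 (0.0998) and the brightest probe set of Chd4 (0.0552) did not pass, and Rad21 passed as lower with quantile normalization (adjusted p = 0.0378). The replicate numbers share only a number: deviations of same-numbered arrays correlated at -0.0019, and with the replicate block 3635 probe sets and 2 members passed. Uncalled Sycp3 (-0.036 to 0.34) and Hormad1 (-0.37 to 0.38) changed sign with an array left out. In the top 40% of probe sets Sycp1, Sycp2, Smc1b and Hormad1 were not tested.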
